A study of Mus musculus with 6 samples.

Results

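Ribosome biogenesis genes and the genes of RNA polymerase I (Pol I) were followed here in activated mouse T cells. They were 45 genes chosen by symbol from their known roles, with earlier results of these data known. All 45 were found among the 52550 genes of the count table. RNA was sequenced from splenic CD3+ T cells of WT mice, kept in RPMI medium with fetal bovine serum and activated for 24 h with anti-CD3/CD28, which engages the T cell receptor (TCR). Activation was given by itself in 3 samples (TCR alone), and in the other 3 DMGV was added at 100 ng/ml (TCR+DMGV). DMGV is dimethylguanidino valeric acid, a metabolite of dimethylated arginines. The labels name DMGV as the added compound, whereas the text of the study calls the agent of its RNA sequencing LNY1, and the doubt was not settled here. The labels call the samples biological replicates without saying whether each came from its own animal, so that the p-values measure the spread between these samples.

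Ribosomes are built in the nucleolus. Pol I copies the ribosomal DNA into a long precursor RNA, small nucleolar ribonucleoproteins (snoRNPs) guide its chemical modification and cleavage, and separate sets of assembly factors shape the small and the large subunit before export to the cytoplasm. Resting T cells hold little of this machinery, and activation through the TCR is known to switch it on, in large part through the transcription factor Myc, ahead of cell growth and division.

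The counts summed to between 37758725 and 43718867 per sample, and 14786 genes had enough counts to be tested, among them all 45 members. T cell markers were present in every sample (summed level of the 10 genes 2752 to 2975 CPM, that is counts relative to the library total, in TCR alone and 2951 to 3172 CPM in TCR+DMGV), as were 10 activation markers such as Il2ra and Cd69 (4054 to 4688 and 4211 to 4710.2 CPM). Markers of B cells, myeloid cells and erythroid cells each summed to 14.0 CPM or less, with Cd14, S100a8, S100a9 and Slc4a1 at 0 counts throughout. NK markers, several of which activated T cells also use, summed to 221 to 245 CPM in TCR alone and 249 to 260.4 CPM in TCR+DMGV, and the part of this small difference in the results was not tested. TCR alone replicate 3 and TCR+DMGV replicate 1 stood apart from the other 4 samples on the first principal component of all tested genes, at 42.1 and 42.9 against -34.9 to -10.5, a component that held 32.2% of the variance. Because 1 of them lies in each group, several results that rest on them are also given without both.

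No member passed the test for a difference between TCR+DMGV and TCR alone. By edgeR's quasi-likelihood test with Benjamini-Hochberg adjustment over 14786 genes, the adjusted p was at least 0.999 for every member, and 2 genes of the whole table (0.0135%) passed the threshold of 0.05. DESeq2 called 0 members too. At an unadjusted p under 0.05, edgeR gave 3 members higher in TCR+DMGV and 0 lower, beside 1.63% of all tested genes higher and 1.56% lower. The fitted log2 fold changes of the members lay between -0.24 and 0.26, or 0.848-fold to 1.19-fold, with standard errors (SE) from 0.064 to 0.41.

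Although single genes did not pass, most of the small fitted differences had the same sign. The log2 fold change was above 0 for 37 of the 45 members (82.2%) against 50.6% of all tested genes, and its median was 0.059 against 0.0024 for all genes. The members were chosen with earlier results of these data known and are not independent replicates, so no test was made of this excess. The excess shrank when 1 control sample was left out. The median deviation of the members from their 6-sample mean, on the log2 CPM scale, was -0.090, 0.0079 and -0.0052 in TCR alone replicates 1, 2 and 3, and 0.030, 0.034 and 0.055 in TCR+DMGV replicates 1, 2 and 3. TCR alone replicate 1 was thus the lowest sample, and the other 2 TCR alone samples lay nearer to the TCR+DMGV samples than to it. Without TCR alone replicate 1 the median log2 fold change of the members was 0.020 with 29 of 45 above 0, whereas without both samples that stood apart it was 0.081 with 35 of 45 above 0. In 7 members every TCR+DMGV sample lay above every TCR alone sample (15.6%, against 4.92% of all tested genes), and no member showed the opposite order (3.94% of all tested genes). That count depended on the scaling, since with library size alone in place of trimmed mean (TMM) factors 2 members, Rrp9 and Rrs1, remained apart (4.44%, against 3.56% of all tested genes). CPM is a share of the library, and in RNA of a whole culture fewer cells of a type and less RNA per cell cannot be told apart.

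**Figure D1:**
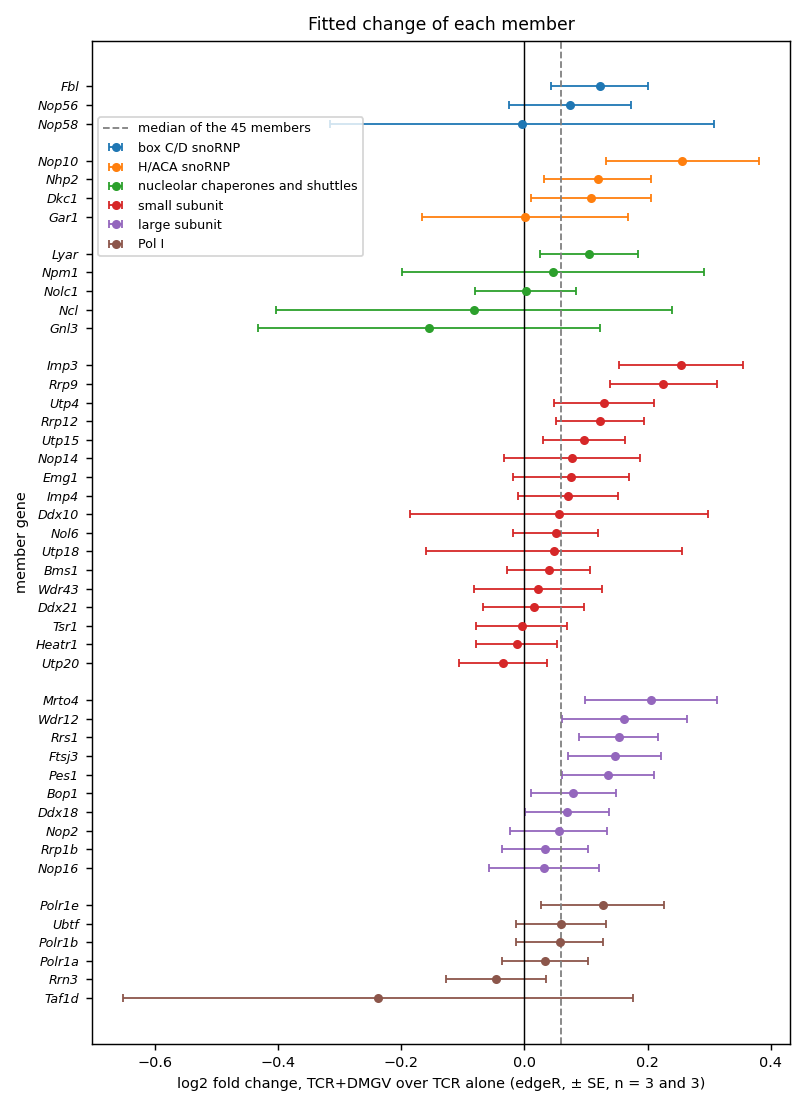
Fitted log2 fold change of each of the 45 members (x axis, TCR+DMGV over TCR alone, points with SE, n = 3 and 3) by role, with a dashed line at the median of the members. Points of 37 members lie right of 0, all within 0.26 of it on that side, and the widest bars belong to Taf1d, Ncl, Nop58, Gnl3, Npm1, Ddx10 and Utp18.

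Among the 17 small subunit factors, 14 (82.4%) had a log2 fold change above 0, against 50.6% of all tested genes. The median was 0.056 and the range -0.035 to 0.25. Rrp9, at chr9:106475963-106485424 on the GRCm38 build, encodes a protein of the small subunit processome that binds a box C/D snoRNA. Rrp9 was at 138, 149 and 165 CPM in TCR alone replicates 1, 2 and 3 and 171, 173 and 184 CPM in TCR+DMGV replicates 1, 2 and 3. The groups did not overlap, the means were 151 ± 13.5 and 176 ± 7.16 CPM (SD, n = 3 each), and the log2 fold change was 0.23 ± 0.087 (SE, edgeR, unadjusted p = 0.035, adjusted p = 0.999). An exon of Rrp9 overlaps Parp3 on the opposite strand, as exons of 17 of the 45 members overlap another gene there, and without strand the reads of such pairs cannot be told apart. Imp3, a small processome protein encoded at chr9:56937475-56938398, was at 79.3, 83.4 and 97.3 CPM in the TCR alone samples and 99.2, 100.5 and 110.5 CPM in the TCR+DMGV samples. Here too the lowest treated sample lay above the highest control, by 1.90 CPM, and the log2 fold change was 0.25 ± 0.10 (edgeR, unadjusted p = 0.039, adjusted p = 0.999).

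Utp15 and Rrp12 also did not overlap between groups, but by little. Utp15, a subunit of the complex that binds the nascent precursor, was at 181, 178 and 173 CPM in the TCR alone samples and 194, 192 and 183 CPM in the TCR+DMGV samples, with a log2 fold change of 0.097 ± 0.066. Rrp12, an export and assembly factor of pre-ribosomes, was at 205, 201 and 224 CPM in the TCR alone samples and 225, 228 and 233 CPM in the TCR+DMGV samples, and the gap between its groups was 0.769 CPM. By edgeR the unadjusted p of Utp15 was 0.19 and that of Rrp12 0.13. Utp4, another subunit of the same early complex as Utp15, was at 314 ± 23.7 and 343 ± 15.6 CPM (SD, n = 3 each) with overlapping groups and a log2 fold change of 0.13 ± 0.081. Heatr1, a large scaffold protein of the early processome, was among the steadiest members, at 414, 425 and 394 CPM in the TCR alone samples and 402, 419 and 402 CPM in the TCR+DMGV samples and a log2 fold change of -0.012 ± 0.066.

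**Figure D2:**
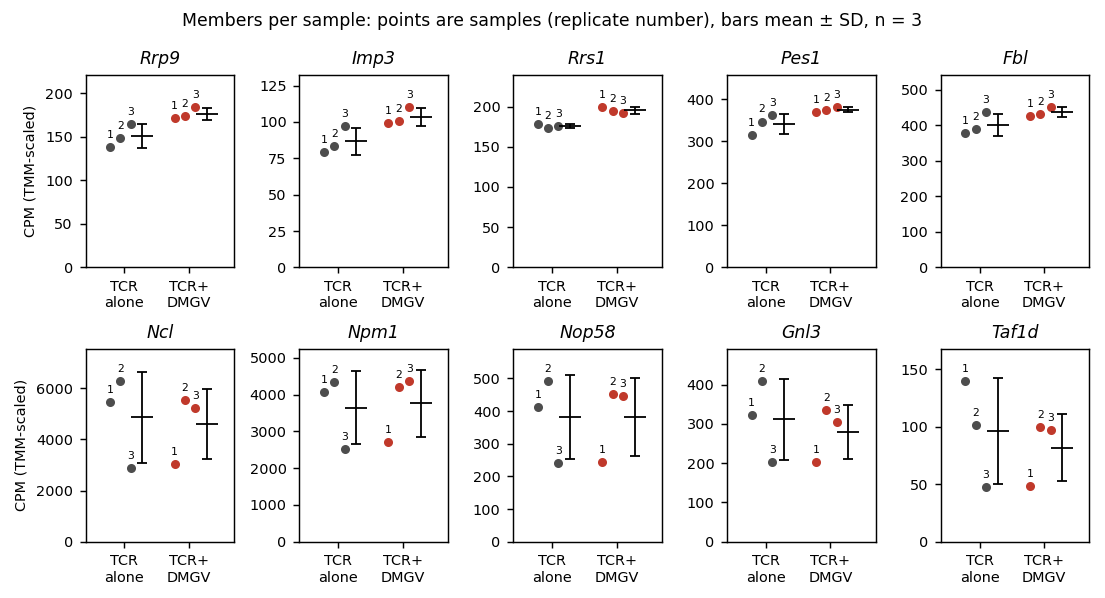
Level of 10 members in each sample (y axis, CPM with TMM scaling, from 0), with the replicate number at each point and mean ± SD beside it (n = 3). In the upper row Rrp9, Imp3, Rrs1 and Pes1 do not overlap between groups and Fbl does, and in the lower row TCR alone replicate 3 and TCR+DMGV replicate 1 are the lowest points of Ncl, Npm1, Nop58, Gnl3 and Taf1d.

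All 10 large subunit factors had a log2 fold change above 0, against 50.6% of all tested genes, with a median of 0.11 and a range of 0.031 to 0.21. With single samples left out, Nop2 fell to -0.026 and Nop16 to -0.057. In 3 of the 10 every TCR+DMGV sample lay above every TCR alone sample (30%, against 4.92% of all tested genes). Of 44 other large subunit factors, 33 were above 0 (75%) and 6 had that order (13.6%). Of 41 other small subunit factors, 34 were above 0 (82.9%) and 2 had that order (4.88%). Of 151 other ribosome biogenesis genes, which include both lists, 12 had that order (7.95%) and 2 the opposite order. Rrs1, a factor for assembly of the large subunit encoded at chr1:9545408-9547455, was at 178, 174 and 175 CPM in the TCR alone samples and 199.8, 195 and 191 CPM in the TCR+DMGV samples. The spread within groups was small, the lowest treated sample was 13.3 CPM above the highest control, and the log2 fold change was 0.15 ± 0.064 (edgeR, unadjusted p = 0.047, adjusted p = 0.999). Pes1 and Bop1 encode partners in a complex that processes the large subunit precursor. Pes1 was at 315, 347 and 362 CPM in the TCR alone samples and 369, 374 and 382 CPM in the TCR+DMGV samples, a log2 fold change of 0.14 ± 0.075, without overlap. Bop1 was at 285, 297 and 311 CPM in the TCR alone samples and 311, 308 and 326 CPM in the TCR+DMGV samples, where TCR alone replicate 3 reached the treated samples, and its log2 fold change was 0.079 ± 0.069. Ftsj3, a nucleolar RNA methyltransferase, was at 451, 462 and 496 CPM in the TCR alone samples and 555, 507 and 498 CPM in the TCR+DMGV samples with a log2 fold change of 0.15 ± 0.076, and TCR alone replicate 3 lay just below the lowest treated sample. Nop2, which methylates the large subunit RNA, was at 364, 413 and 424 CPM in the TCR alone samples and 424, 413 and 411 CPM in the TCR+DMGV samples. Its only value off the others was that of TCR alone replicate 1, and its log2 fold change was 0.056 ± 0.079. The other large subunit factors all overlapped between groups.

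The snoRNP core proteins did not separate the groups. The median log2 fold change was 0.074 for the 3 box C/D proteins and 0.11 for the 4 H/ACA proteins. Fibrillarin (Fbl), the methyltransferase of box C/D snoRNPs, was at 378, 390.1 and 436 CPM in the TCR alone samples and 427, 431 and 452 CPM in the TCR+DMGV samples, and TCR alone replicate 3 lay within the treated range. Its log2 fold change was 0.12 ± 0.078, and it was 0.20 without the 2 samples that stood apart. Nop56, a structural partner of Fbl, had a single low value, 441 CPM in TCR alone replicate 1, against 523 to 563 CPM in the other 5 samples. Of the H/ACA proteins, which carry out pseudouridylation, dyskerin (Dkc1) is the enzyme and was at 305 ± 23.7 and 329 ± 31.6 CPM (SD, n = 3 each) with a fitted log2 fold change of 0.11 ± 0.097. Nop10, a small subunit of that enzyme complex, had the highest log2 fold change of all members, 0.26 ± 0.12 (edgeR, unadjusted p = 0.076). Its levels nevertheless overlapped, at 98.4, 113 and 119.8 CPM in the TCR alone samples and 132, 114 and 149.8 CPM in the TCR+DMGV samples, since TCR+DMGV replicate 2 fell below TCR alone replicate 3. Gar1, from the same complex, was at 45.02, 59.9 and 57.8 CPM in the TCR alone samples and 54.5, 44.3 and 64.1 CPM in the TCR+DMGV samples, with a log2 fold change of 0.0011 ± 0.17 whose sign changed with the scaling.

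The Pol I genes did not separate the groups either. Of the 6 members 4 had a log2 fold change above 0, the median was 0.045, and each of the 6 overlapped between groups. Polr1a, the largest subunit of the enzyme, was at 263, 263 and 283 CPM in the TCR alone samples and 287, 277 and 266 CPM in the TCR+DMGV samples, and Polr1b, the second largest, at 209.5, 215 and 232 CPM in the TCR alone samples and 232, 226 and 224 CPM in the TCR+DMGV samples. Their log2 fold changes were 0.034 ± 0.070 and 0.057 ± 0.070. Ubtf, which bends and activates the ribosomal DNA promoter, was at 376 ± 21.5 and 391.9 ± 15.2 CPM (SD, n = 3 each). Rrn3, the factor that brings Pol I to the promoter, was at 156, 162 and 142 CPM in the TCR alone samples and 143, 157 and 145 CPM in the TCR+DMGV samples, a log2 fold change of -0.046 ± 0.082. Taf1d, a subunit of the promoter selectivity factor at chr9:15306214-15316991, had the lowest log2 fold change of the members, -0.24, but also the widest error, an SE of 0.41. It was at 139.6, 101 and 47.9 CPM in the TCR alone samples and 48.0, 100.0 and 97.0 CPM in the TCR+DMGV samples. The 2 lowest values came from 1 sample of each group and the highest from TCR alone replicate 1. Without the 2 samples that stood apart the log2 fold change of Taf1d was -0.29.

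Myc, which drives many of these genes through the E-box CACGTG, was measured at 313, 310.3 and 337 CPM in the TCR alone samples and 358, 326 and 323 CPM in the TCR+DMGV samples. The groups overlapped and the log2 fold change was 0.067 ± 0.076 (edgeR, unadjusted p = 0.4). To show where that motif lies, the RefSeq start sites of the members were searched on GRCm38.p6, from 250 bases before to 50 bases after each, for the 6 letters CACGTG, which read the same on both strands. A window was found for 39 of the 45 members, and 9 of these (23.1%) held the motif, against 8.09% of 27025 genes. Before the start site alone the share was 4 of 39 (10.3%) against 6.86%. Of 124 other ribosome biogenesis genes with a window, 22 (17.7%) held the motif, and 11 (8.87%) held it before the start site. In Utp4, Utp20, Pes1, Tsr1 and Wdr43 it lay past the start site. The stretches before the start site of the 4 members that held it there follow, 5′ to 3′ on the strand of the gene, with the motif in capitals. They were chosen for the motif, not for their values.
Imp4 (chr1:34439681-34439740, plus strand, motif starting 121 bases before the start site): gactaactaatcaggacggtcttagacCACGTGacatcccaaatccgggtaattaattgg
Nop2 (chr6:125131796-125131855, plus strand, motif starting 60 bases before the start site): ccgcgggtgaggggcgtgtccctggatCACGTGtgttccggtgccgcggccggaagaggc
Utp18 (chr11:93885767-93885813, minus strand, motif starting 20 bases before the start site): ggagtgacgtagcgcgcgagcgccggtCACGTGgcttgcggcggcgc
Rrn3 (chr16:13780457-13780516, plus strand, motif starting 215 bases before the start site): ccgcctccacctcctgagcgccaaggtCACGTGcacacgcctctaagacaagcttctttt
Rrn3 (chr16:13780624-13780683, plus strand, motif starting 48 bases before the start site): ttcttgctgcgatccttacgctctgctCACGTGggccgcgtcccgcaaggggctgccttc
Rrn3 carried the motif at 2 places. The log2 fold changes of these 4 members were 0.071 for Imp4, 0.056 for Nop2, 0.048 for Utp18 and -0.046 for Rrn3, and none of them passed the test. A match says that the letters are present and not that a factor binds there.

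The 5 nucleolar chaperones and shuttling proteins had a median change of 0.0021 on the log2 scale, with 3 above 0. Levels between genes were compared per length. Nucleophosmin (Npm1), a histone and ribosome chaperone, was the most abundant member at 1232 ± 263 FPKM (fragments scaled to gene length and sequencing depth, SD, n = 6), and nucleolin (Ncl), which binds precursor RNA, followed at 412 ± 118 FPKM. At the other end were Taf1d at 8.80 ± 3.48, Wdr12 at 12.5 ± 1.08 and Polr1e at 15.4 ± 1.23 FPKM, and the median over members was 52.1 FPKM. In the order of levels the mean ± SD of neighbours met in 38 of 44 pairs, and the 6 pairs apart were Npm1 and Ncl, Ddx21 and Nolc1, Dkc1 and Ubtf, Utp15 and Rrp1b, Polr1a and Polr1e, and Polr1e and Wdr12.

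Ncl, at chr1:86344719-86359400, was at 5462, 6284 and 2869.7 CPM in TCR alone replicates 1, 2 and 3 and 3048, 5533 and 5229.5 CPM in TCR+DMGV replicates 1, 2 and 3. Npm1, at chr11:33152287-33163206, was at 4059, 4351 and 2524 CPM in the TCR alone samples and 2715, 4207 and 4368 CPM in the TCR+DMGV samples. Nop58, the third core protein of box C/D snoRNPs, was at 414, 492 and 242 CPM in the TCR alone samples and 245, 453 and 447 CPM in the TCR+DMGV samples. In each of these genes TCR alone replicate 3 and TCR+DMGV replicate 1 were far below the other 4 samples and close to each other. Gnl3 (nucleostemin), a nucleolar GTPase, had the same order, at 323, 409 and 203 CPM in the TCR alone samples and 202, 334 and 304 CPM in the TCR+DMGV samples. The group means of these genes therefore differed by less than their SDs, with log2 fold changes of -0.082 ± 0.32 for Ncl, 0.046 ± 0.25 for Npm1, -0.0039 ± 0.31 for Nop58 and -0.16 ± 0.28 for Gnl3. Without both samples the values were -0.12, 0.031, -0.0072 and -0.20. Mouse Npm1 has processed pseudogenes, and how its reads were shared with them is not given in the sources used here.

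**Figure D3:**
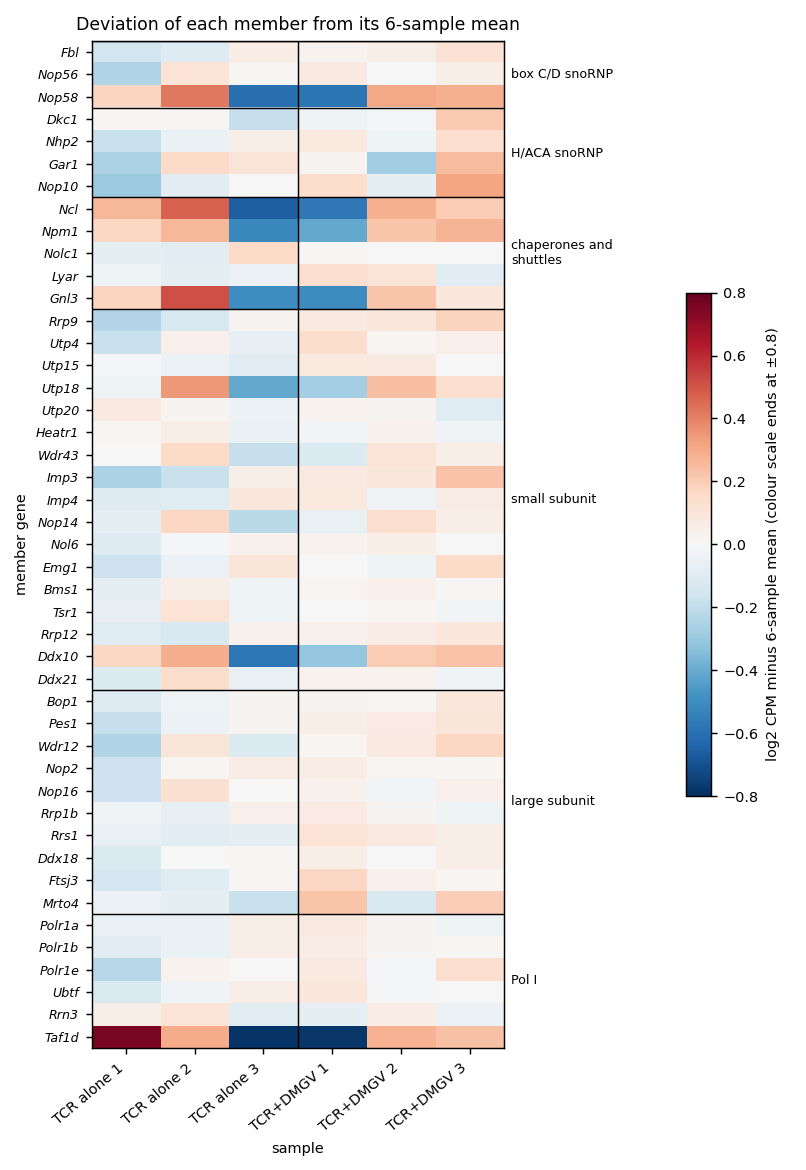
Deviation of each member from its 6-sample mean (colour, log2 CPM, blue below and red above, scale ending at ±0.8) in the 6 samples (columns), by role (rows). Blue cells in TCR alone replicate 3 and TCR+DMGV replicate 1 mark Taf1d, Ncl, Nop58, Gnl3, Npm1, Ddx10 and Utp18, and TCR alone replicate 1 is pale blue in most large subunit rows.

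The members low in those 2 samples were compared with the other members for 2 features that the choice of members did not use. In 10 of the 45 members (22.2%) these samples held the 2 lowest values, against 17.2% of all tested genes, and the 10 were Nop58, Dkc1, Ncl, Npm1, Gnl3, Utp18, Wdr43, Ddx10, Rrn3 and Taf1d. The GC content of their transcripts had a median of 42.8% and ran from 40.1% to 46.4%, whereas that of the other 35 members had a median of 51.2% and ran from 44.1% to 58.3%. Among all tested genes, the 2546 with the same 2 lowest samples had a median of 44.1%, so that low GC content was not particular to these members. Over the 45 members, Pearson's r between GC content and the deviation in a sample was -0.61, -0.70 and 0.75 in TCR alone replicates 1, 2 and 3 and 0.66, -0.58 and -0.22 in TCR+DMGV replicates 1, 2 and 3. The sign was positive in the 2 samples that stood apart and negative in the other 4. Over all 14759 tested genes with a GC value the r had the same sign in each sample and was weaker, from -0.25 to 0.35. Over 150 other genes of the pathway it was -0.36, -0.53 and 0.63 in TCR alone replicates 1, 2 and 3 and 0.42, -0.24 and -0.15 in TCR+DMGV replicates 1, 2 and 3, again with the same signs. Exosc6, a subunit of the RNA exosome, was left out of these values after the data were seen. It was at 5.51 CPM in TCR alone replicate 2 and 0.18 CPM in TCR+DMGV replicate 1 against 78.6 to 97.1 CPM in the other 4 samples, and with it r was -0.074, -0.54, 0.61, -0.077, 0.041 and 0.079 in the same order. In 25 of the 151 pathway genes (16.6%) TCR alone replicate 3 and TCR+DMGV replicate 1 held the 2 lowest values. These are descriptions across genes that share a library, and genes are not independent replicates. With a GC correction the median log2 fold change of the members was 0.054, and 0 members passed the test.

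**Figure D4:**
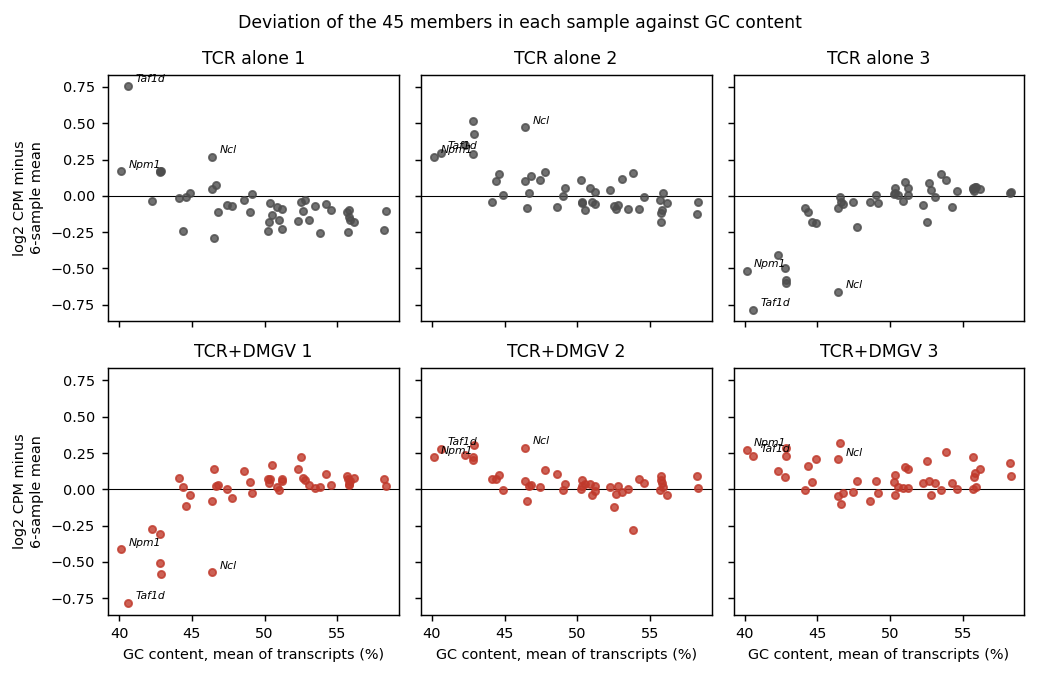
Deviation of the 45 members from their 6-sample means (y axis, log2 CPM) against the mean GC content of their transcripts (x axis, percent), 1 panel per sample. Ncl, Npm1 and Taf1d, with GC contents of 46.4%, 40.1% and 40.6%, lie below 0 in TCR alone replicate 3 and TCR+DMGV replicate 1 and above 0 in the other 4 samples.

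A second feature was the small nucleolar RNAs (snoRNAs) that some ribosome biogenesis genes carry in their introns. In the GENCODE M21 annotation, 8 of the 45 members hold 29 snoRNA genes, with 8 in Taf1d, 5 in Nop56, 4 in Nop58, 3 each in Ncl, Gnl3 and Wdr43, 2 in Tsr1 and 1 in Dkc1. The 2 samples held the 2 lowest values in 6 of the 8 hosts, all but Nop56 and Tsr1, and in 4 of the 37 other members. Over all tested genes the share was 17.2%, and snoRNA hosts outside the members were not examined. The 8 hosts among the members had a median GC content of 44.7% against 51.2% in the other members, so that host status and GC content went together here. Their median log2 fold change was -0.0041, against 0.071 for the other 37. The snoRNAs themselves could hardly be measured, since 1 of the 29, the snoRNA gene Gm24451 inside Nop56, had at least 10 counts in every sample (24, 19, 31 and 25, 32, 31 counts), and the highest count of any of them was 35.

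Transcripts of the members were then compared one by one, with names as in GENCODE M21. Of 262 annotated transcripts of members 205 had enough counts, and edgeR called 0 of them and 0 of all 38401 (0%), with 4 member transcripts at an unadjusted p under 0.05 beside 3.22% of all. DESeq2 called 2 member transcripts, Nop16-202 and Ubtf-205, beside 0.724% of all 53479 it gave an adjusted p. The transcripts described here were chosen after their values were seen, and their counts are estimates that divide the reads of a gene among its annotated forms.

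Nop16-202, a shorter protein-coding form of a large subunit factor, was at 0 counts in each TCR alone sample and at 774, 320 and 325 counts in TCR+DMGV replicates 1, 2 and 3. With 3 counts, a chosen value, put in place of each 0, it was 146-fold higher in TCR+DMGV on the CPM scale. That ratio rests on the chosen value and on estimated counts, so it is not a lower bound. It made up 4.63% to 10.4% of the counts of Nop16 in those samples. The adjusted p was 0.28 by edgeR and 1.9e-12 by DESeq2. The main form Nop16-201 was at 5474, 7183 and 6679 counts in TCR alone and 6609, 6566 and 6298 counts in TCR+DMGV, and the gene as a whole had a log2 fold change of 0.031 ± 0.089. Of all tested transcripts, 68 (0.177%) likewise had 0 counts in the TCR alone samples and at least 10 in each TCR+DMGV sample, and 51 had the opposite order. Ubtf-205 was at 0 in the TCR alone samples and at 1179, 1221 and 0 counts in TCR+DMGV replicates 1, 2 and 3, so that 1 treated sample was at 0 as well. It did not pass the count filter of edgeR, and its adjusted p by DESeq2 was 0.041.

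Npm1-204 was at 53442, 53481 and 50425 counts in TCR alone and 70650, 65030 and 67470 counts in TCR+DMGV. The groups did not overlap, and the log2 fold change was 0.29 ± 0.070 (edgeR, unadjusted p = 0.0073, adjusted p = 0.98). The longer form Npm1-201 was at 100081, 123548 and 53727 and 49884, 115548 and 105130 counts, so that the fall of Npm1 in TCR alone replicate 3 and TCR+DMGV replicate 1 was seen in this form and not in Npm1-204. Nop58 was divided in the same way. Its form Nop58-215, of 9507 bases, was at 9053, 11300 and 3845 and 4635, 13548 and 12146 counts and was low in the same 2 samples, while Nop58-201, of 1713 bases, was at 5577, 7719 and 5021 and 5745, 4992 and 4843 counts and was not.

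**Figure D5:**
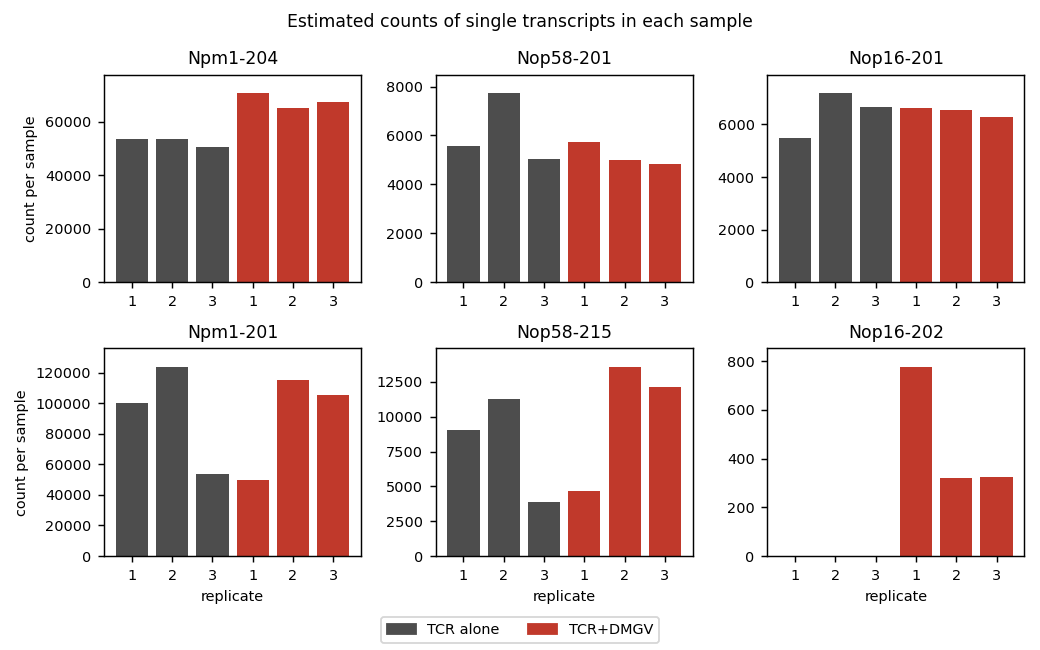
Estimated counts of 6 transcripts in each sample (bars from 0, y axis, counts; x axis, replicate number; grey TCR alone, red TCR+DMGV). Npm1-204 is higher in the 3 TCR+DMGV samples, Npm1-201 and Nop58-215 are lowest in TCR alone replicate 3 and TCR+DMGV replicate 1, and Nop16-202 has bars in TCR+DMGV only.

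The rest of the pathway was read from a list of 151 other ribosome biogenesis genes, all of which were tested. None passed the test in either direction by edgeR or DESeq2. At an unadjusted p under 0.05 by edgeR, 2 were higher and 0 lower, beside 1.63% of all tested genes higher and 1.56% lower. In 12 (7.95%) every TCR+DMGV sample lay above every TCR alone sample, against 4.92% of all tested genes. In 2 every TCR+DMGV sample lay below, an order held by 3.94% of all tested genes. The log2 fold change was above 0 for 113 of the 151 genes, with a median of 0.058. Without TCR alone replicate 1 it was above 0 for 78 with a median of 0.0058. The medians were 0.081 for 14 other Pol I genes, 0.064 for 41 small subunit and 0.057 for 44 large subunit factors. They were 0.041 for 11 snoRNP assembly factors, 0.019 for 26 genes of the processing nucleases and 0.013 for 15 regulators. The share with every TCR+DMGV sample above was 7.14%, 4.88%, 13.6%, 9.09%, 7.69% and 0% in the same order of lists. The 2 genes in the opposite order were 1 of the nuclease genes and 1 regulator. Polr2l, a small subunit shared by the 3 nuclear RNA polymerases, was at 29.0, 30.6 and 33.05 CPM in TCR alone and 37.99, 34.1 and 37.0 CPM in TCR+DMGV, without overlap. Its log2 fold change was 0.24 ± 0.096 (edgeR, unadjusted p = 0.043). Dcaf13, a small processome protein, was at 120.2, 135 and 116 and 135, 146 and 148 CPM, and TCR alone replicate 2 reached the lowest treated sample. Its log2 fold change was 0.21 ± 0.087 (edgeR, unadjusted p = 0.046).

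The 20 members outside the rule for named genes, some of which appear above for a sequence, a level or a transcript, had log2 fold changes from -0.035 to 0.21 with a median of 0.053, and 18 of the 20 were above 0. All 20 overlapped between groups, because the rule named every member that did not. Over all members the smallest count in any sample was 1710, and counting error was not computed. The SE was under 0.1 for 31 members and over 0.2 for 7, and those 7 were Taf1d, Ncl, Nop58, Gnl3, Npm1, Ddx10 and Utp18.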

How the data were processed

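RNA of 6 samples, 3 per group, was sequenced after enrichment for mRNA. Per the labels, the reads were mapped with HISAT2 2.0.4 to mm9, although the identifiers are versioned Ensembl identifiers that GENCODE M21 (GRCm38) holds for 99.72% of genes. Expression was calculated with StringTie, and the step from it to counts and its use of strand are not given in the sources used here. The authors deposited whole-number counts per gene and per transcript, not normalized, and FPKM values, which the authors scaled to the length of the gene and the depth of the sample. The total counts exceed the read depth the labels state, so that intervals for counting error were not computed.

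Gene counts were tested in R 4.3.3 with the quasi-likelihood test of edgeR 4.0.16 (two-sided, TMM factors, default count filter, Benjamini-Hochberg over all tested genes, threshold 0.05), and transcript counts in the same way. CPM are TMM-scaled. Deviations are of log2 CPM with a prior count. Named genes are members with a set role in the machinery, members whose groups do not overlap, members with an unadjusted p under 0.05, and the 3 highest and 3 lowest log2 fold changes. Myc and other pathway genes with an unadjusted p under 0.05 were named as well. The members and lists were chosen with earlier results of these data known.

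Alternatives were DESeq2 1.42.0, other scalings and filters, summed transcript counts, the trend test of limma 3.58.1 on log2(FPKM + 1) and on log2(FPKM + 0.1), corrections for length and GC content, the replicate number as a block, and samples left out. Whether equal replicate numbers pair samples was not settled. The fit was tested on simulated data with a log2 change of 1 put into 200 of 14449 genes between TCR+DMGV and TCR alone. It recovered 50.5% of them, and 7.34% of its calls were unchanged genes. The 200 genes were drawn at random, so that this recovery is not that of the members. The median SE in the data was 0.082 for members and 0.17 for all tested genes. Smaller changes were not simulated. Tables used pandas 2.3.3 under Python 3.11.15, and figures used matplotlib 3.10.9. RefSeq promoter windows were matched by symbol for 39 of 45 members.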

Additional observations from a re-analysis of the deposited data

How the results depend on the processing

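No alternative gave a called member or a called gene of the wider pathway. The count of 7 members without overlap (15.6%, against 4.92% of all tested genes) was 2 with library size alone, 2 with log2(FPKM + 1) and 2 with log2(FPKM + 0.1), or 4.44% of members each time, against 3.56%, 3.60% and 3.60% of all tested genes, and 4 (8.89%, against 3.73%) with a gene length correction. Without the 2 samples that stood apart it was 19 (42.2%, against 19.6%), with Utp20 and Taf1d in the opposite order. With single samples left out it ran from 5 (11.1%, against 7.66%, without TCR alone replicate 1) to 19 (42.2%, against 14.6%, without TCR alone replicate 3, with Taf1d in the opposite order), and it was 12 (against 8.79%) without TCR alone replicate 2 and 13 (against 10.4%) without TCR+DMGV replicate 2. For the opposite order, the share of all tested genes with samples left out is not given here. Utp20 and Taf1d are therefore not read as lowered members. With single samples left out, the median log2 fold change was 0.020 (without TCR alone replicate 1) to 0.095 for members and 0.0058 (without the same sample) to 0.089 for the pathway. DESeq2 called 2 member transcripts where edgeR called 0. Of 504 values of 28 named genes under the alternatives, 476 kept their sign and 28, of 10 genes, changed it. Nop58 was at 0.054 with a GC correction. Gar1, at 0.0011, was at -0.0049 with DESeq2, -0.0054 with RLE size factors, -0.013 with library size alone, -0.019 with log2(FPKM + 1), -0.020 with log2(FPKM + 0.1), -0.0031 with the replicate block, -0.093 with a length correction and -0.022 with a GC correction. With single samples left out the log2 fold change ranged from -0.037 to 0.15 for Nop56, -0.24 to 0.23 for Nop58, -0.14 to 0.13 for Gar1, -0.35 to 0.14 for Ncl, -0.16 to 0.23 for Npm1, -0.38 to 0.088 for Gnl3, -0.036 to 0.0092 for Heatr1, -0.026 to 0.11 for Nop2, -0.0010 to 0.075 for Polr1a and -0.56 to 0.11 for Taf1d. The cause of these changes was not tested.

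Same-numbered samples of the 2 groups deviated with correlations of -0.15, 0.12 and -0.15 across genes, and TCR alone replicate 3 and TCR+DMGV replicate 1 with 0.31. These values cannot decide whether the numbers pair samples, because the 2 samples that stood apart carry different numbers. With the replicate block 0 members, 0 pathway genes and 0 member transcripts passed, and the median was 0.070 for members and 0.065 for the pathway. Members had at least 1710 counts in every sample, and how far depth or the spread between samples set the precision was not computed.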

Other observations

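Transcripts of some members varied between samples in both groups. These were chosen after their values were seen, and the values are given with no explanation. Wdr12, a partner of Pes1 and Bop1, was divided between Wdr12-202, at 2313, 6320 and 2816 counts in TCR alone replicates 1, 2 and 3 and 3243, 6734 and 6621 counts in TCR+DMGV replicates 1, 2 and 3, and Wdr12-201, at 2562, 788 and 2439 counts in TCR alone replicates 1, 2 and 3 and 3440, 663 and 613 counts in TCR+DMGV replicates 1, 2 and 3. The first form was low and the second high in TCR alone replicates 1 and 3 and in TCR+DMGV replicate 1. In Polr1e, a Pol I subunit, Polr1e-202 was at 1363, 198 and 171 counts in TCR alone replicates 1, 2 and 3 and 237, 2016 and 217 counts in TCR+DMGV replicates 1, 2 and 3, and Polr1e-204 was at 593, 1690 and 1711 counts in TCR alone replicates 1, 2 and 3 and 2374, 611 and 2505 counts in TCR+DMGV replicates 1, 2 and 3, so that TCR alone replicate 1 and TCR+DMGV replicate 2 had the opposite balance from the other 4 samples. Polr1a-203, annotated as a target of nonsense-mediated decay, was at 15, 2080 and 1575 counts in TCR alone replicates 1, 2 and 3 and 1908, 2223 and 1257 counts in TCR+DMGV replicates 1, 2 and 3, and Polr1a-201, the protein-coding form, was at 9034, 8184 and 9654 counts in TCR alone replicates 1, 2 and 3 and 10374, 9366 and 8602 counts in TCR+DMGV replicates 1, 2 and 3. Dkc1-211, a transcript without a coding sequence, was at 791, 986 and 141 counts in TCR alone replicates 1, 2 and 3 and 50, 856 and 817 counts in TCR+DMGV replicates 1, 2 and 3, lowest in the 2 samples that stood apart.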
